A study of Mus musculus with 2 samples.

Results

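Some droplet barcodes of the sorted mouse liver libraries held transcripts of liver sinusoidal endothelial cells (LSECs) together with complement C1q transcripts of Kupffer cells and other macrophages, and these dual barcodes are described here. A barcode was dual when the complement genes C1qa, C1qb and C1qc made up at least 0.2% of its UMIs (the Kupffer limit) and the endothelial genes Stab2, Clec4g, Kdr and Ptprb made up at least 0.25% (the LSEC limit). Barcodes with fewer than 500 UMIs, fewer than 300 genes or 20% or more mitochondrial UMIs had been left out. Members were chosen by these measured values, and the rule took 326 of 12830 such barcodes, 193 of 7662 in the cirrhosis library and 133 of 5168 in the control library. The comparison classes passed 1 limit only. Kupffer-only barcodes numbered 683 in the cirrhosis and 224 in the control library, and LSEC-only barcodes numbered 4626 and 4037. C1q is made by macrophages in general, and the Kupffer name went against the resident markers of many cirrhosis members. At least 2 UMIs of Clec4f, Vsig4 or Timd4 were found in 48.7% of cirrhosis (94 of 193, 41.5% to 56.0%) and 90.2% of control dual barcodes (120 of 133, 83.9% to 94.7%), and in 48.0% and 85.3% of Kupffer-only and 3.16% and 4.31% of LSEC-only barcodes. The word Kupffer in the class names below therefore stands for the C1q limit only.

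Each library came from the livers of 3 pooled C57BL/6 mice aged 16 weeks with the genotype Cdh5-Cre+, mTmG +/+. The cirrhosis mice had inhaled vaporized carbon tetrachloride (CCl4) for 12 weeks, and the control mice are labelled as control. In Cdh5-Cre mice the promoter of VE-cadherin, an endothelial gene, drives a recombinase, and mTmG replaces membrane tdTomato with membrane GFP after recombination. The sort kept live non-parenchymal cells with GFP, so both libraries were meant to hold endothelium. The libraries held 77339928 UMIs in cirrhosis and 45767322 UMIs in control, with medians of 8537 and 6864.5 UMIs per deposited barcode. With 1 library per group no test between groups was possible, and every interval below is a 95% interval that leaves out variation between mice or libraries. Intervals of shares and medians cover the sampling of barcodes, and those of CPM and ratios cover UMI counting error only. The latter treat UMIs as independent, although UMIs of a gene can lie mostly in 1 barcode. The libraries shared 17 barcode sequences, of which 1 was dual in the cirrhosis library and 0 were dual in the control library.

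LSECs form the fenestrated wall of the hepatic sinusoid and clear proteins and particles from blood through stabilins, the mannose receptor and C-type lectins. Kupffer cells are the resident macrophages of the liver. They sit in the sinusoid on the endothelium and capture microbes, complement-coated particles and ageing red cells. Endothelium supplies ligands that keep Kupffer cell identity, and lost Kupffer cells can be replaced by macrophages derived from monocytes.

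The rule genes themselves were present in nearly all dual barcodes, at levels between those of the single classes. C1qa, C1qb and C1qc encode the chains of C1q, the recognition part of the classical complement pathway, and lie side by side on mouse chromosome 4 (C1qb from 136880129 to 136886187, C1qc from 136889804 to 136893065 and C1qa from 136895917 to 136898803, GRCm38). In the cirrhosis library C1qa stood at 1992 CPM (UMIs scaled to a common total per class) in dual barcodes, 4154 CPM in Kupffer-only and 63.8 CPM in LSEC-only barcodes. In the control library its levels were 2335, 5217 and 31 CPM in the same order of classes. The stabilin gene Stab2, a hyaluronan receptor of sinusoids on chromosome 10 (86841198 to 87008025), stood at 886.7 CPM in cirrhosis dual barcodes, against 103.6 CPM in Kupffer-only and 1397 CPM in LSEC-only barcodes. Clec4g, a sinusoidal C-type lectin on chromosome 8 (3707064 to 3720651), stood at 1382, 116.6 and 2403 CPM in those classes. Kdr encodes the main VEGF receptor of endothelium and Ptprb a tyrosine phosphatase of endothelial junctions, and they had UMIs in 186 and 187 of the 193 cirrhosis and in 129 and 131 of the 133 control dual barcodes. These values chose the members and are given as a description.

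Most dual barcodes passed both limits on many molecules, which describes the choice of members and supports nothing further. C1q UMIs per dual barcode ran from 6 through a median of 53 to 595 in cirrhosis and from 5 through 44 to 445 in control. LSEC-rule UMIs ran from 2 through 83 to 442 in cirrhosis and from 2 through 77 to 664 in control, and 6 cirrhosis and 3 control members passed on 3 or fewer of them. The median C1q content was 0.440% of UMIs in cirrhosis and 0.537% in control dual barcodes, and the median LSEC-rule content was 0.481% and 0.663%. Neither limit lay in an empty range. The lowest C1q content of a dual barcode was 0.2018% in cirrhosis and 0.2006% in control, and the highest LSEC-limit barcode left outside had 0.1996% and 0.1991%. Within 0.05 percentage points of the Kupffer limit lay 40 barcodes above and 62 below it in cirrhosis, and 10 above and 26 below it in control. For the LSEC limit these numbers were 24 above and 17 below in cirrhosis, and 9 above and 13 below in control.

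Dual barcodes were deeper than either single class in both libraries. Their median was 13398 UMIs in cirrhosis (order-statistic interval 12348 to 16055), against 4342 in Kupffer-only and 10458 in LSEC-only barcodes. In control it was 9189 UMIs (7976 to 10917), against 3555 and 7357. The dual median was thus 3.09 times the Kupffer-only and 1.28 times the LSEC-only median in cirrhosis, and 2.58 and 1.25 times in control. The medians of both single classes summed to 14800 UMIs in cirrhosis and 10912 in control, and the dual median was 0.905 and 0.842 of that sum. Above 20000 UMIs lay 34.7% of dual, 15.1% of Kupffer-only and 7.93% of LSEC-only barcodes in cirrhosis, and 21.1%, 6.25% and 5.15% in control. Dual barcodes held a median of 4259 genes in cirrhosis and 3410 in control, against 3753 and 3075 in LSEC-only barcodes. After each barcode was thinned to 2000 UMIs, which left out 8 shallower dual barcodes in each library, dual barcodes had 1190 and 1182 genes. Thinned Kupffer-only barcodes had 967 and 1018 genes, with 191 and 77 shallower ones left out, and thinned LSEC-only barcodes had 1240 and 1254, with 96 and 178 left out. Mitochondrial UMIs were a median of 7.86%, 5.93% and 7.57% of dual, Kupffer-only and LSEC-only barcodes in cirrhosis, and 11.5%, 11.7% and 6.77% in control.

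**Figure D1:**
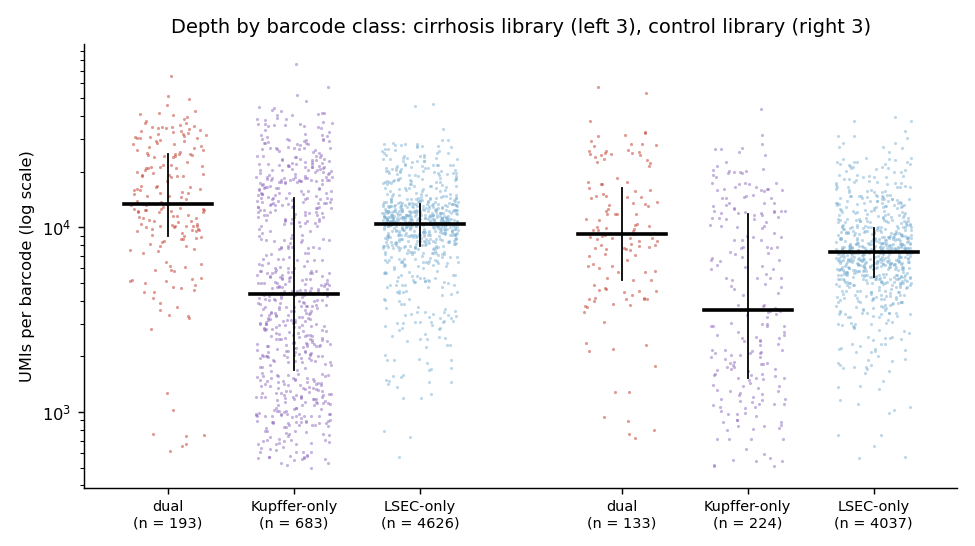
UMIs per barcode (log axis) in dual, Kupffer-only and LSEC-only barcodes of the cirrhosis library (left) and the control library (right). Each dot is a barcode, with 700 randomly drawn where a class held more, the thick bar is the median and the thin line the interquartile range over all barcodes of the class. The dual medians of 13398 and 9189 UMIs lie above those of both single classes.

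The share of dual barcodes was alike in the libraries when counted over all barcodes and unlike when counted over Kupffer-limit barcodes. Over all filtered barcodes it was 2.52% in cirrhosis (Clopper-Pearson interval 2.18% to 2.89%) and 2.57% in control (2.16% to 3.04%). Of the barcodes past the Kupffer limit, 22.0% were dual in cirrhosis (193 of 876, 19.3% to 24.9%) and 37.3% in control (133 of 357, 32.2% to 42.5%). Of those past the LSEC limit, 4.005% were dual in cirrhosis (193 of 4819) and 3.19% in control (133 of 4170). LSEC-only barcodes were 60.4% of the cirrhosis and 78.1% of the control library. The likeness over all barcodes depended on the limits. With both limits doubled 0.392% of cirrhosis (30) and 0.987% of control barcodes (51) were dual, and with a Kupffer limit on Clec4f, Vsig4 and Cd5l 2.08% (159) and 4.12% (213) were. Of the Kupffer-limit barcodes 4.25% in cirrhosis and 16.8% in control were dual under the doubled limits and 27.3% and 49.2% under the other genes, lower in cirrhosis each time. The sort on GFP, the depth of the libraries and the minimum of 500 UMIs can affect these shares, and their part was not tested.

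Among Kupffer-limit barcodes the dual share was lowest where depth was lowest. From 500 to 2000 UMIs it was 4.02% in cirrhosis (8 of 199) and 9.41% in control (8 of 85). From 2000 to 5000 UMIs it was 7.61% and 34.7%, from 5000 to 10000 UMIs 30.7% and 56.2%, from 10000 to 20000 UMIs 34.7% and 36.5%, and above 20000 UMIs 39.4% (67 of 170) and 66.7% (28 of 42). Among LSEC-limit barcodes the same share did not rise steadily with depth. From 500 to 2000 UMIs it was 7.69% in cirrhosis (8 of 104) and 4.301% in control (8 of 186). It was lowest from 5000 to 10000 UMIs, at 2.21% and 1.84%. Above 20000 UMIs it was 15.4% (67 of 434) and 11.9% (28 of 236). The deepest LSEC-limit barcodes of both libraries thus had the highest dual share of their library.

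LSEC transcripts at this level were also found with the markers of leukocytes other than Kupffer cells. Of barcodes with T cell markers, 17.2% passed the LSEC limit in cirrhosis (57 of 331, 13.3% to 21.7%) and 30.3% in control (109 of 360, 25.6% to 35.3%). The share was 12.96% (28 of 216) and 22.5% (61 of 271) for NK cell markers, 14.6% (41 of 280) and 11.3% (11 of 97) for B cell markers, and 8.75% (7 of 80) and 9.52% (2 of 21) for neutrophil markers. The Kupffer share had the highest point estimate of the 5 marker groups in both libraries, and its interval overlapped that of the T cell group in both. Among barcodes of at least 5000 UMIs the shares were 35.4% and 50% for Kupffer, 22.5% and 33.2% for T cell, 16.7% and 25.1% for NK cell and 30.2% and 16.9% for B cell markers in cirrhosis and control. For neutrophil markers they were 27.8% (5 of 18) and 50% (1 of 2), the control share from too few barcodes to compare. T cell barcodes past the LSEC limit had a median of 18307 UMIs in cirrhosis and 15731 in control, against 6022 and 6418 UMIs in those below it. Depth and LSEC content thus moved together in T cell barcodes as in Kupffer-limit barcodes.

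**Figure D2:**
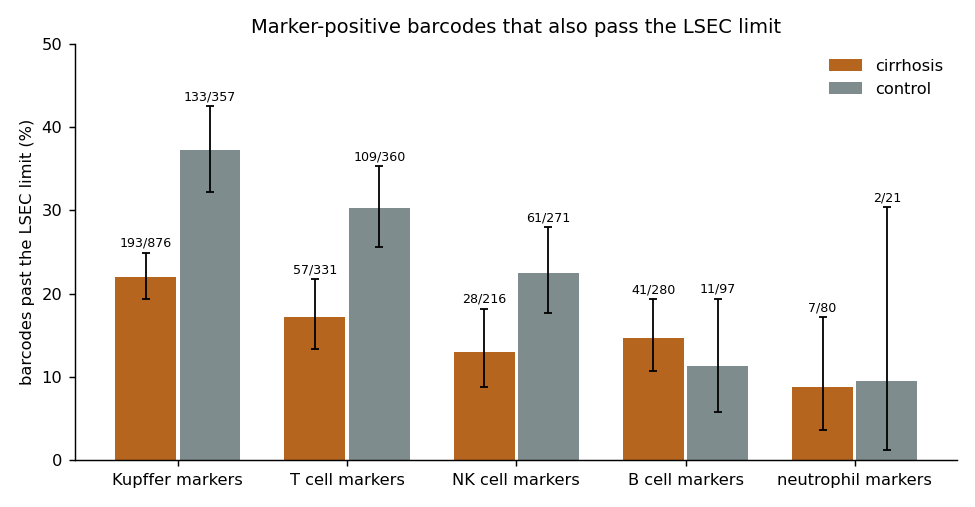
Percentage of barcodes with Kupffer, T cell, NK cell, B cell and neutrophil markers that also passed the LSEC limit, in the cirrhosis library (left bar of each pair) and the control library (right bar). Error bars are exact binomial 95% intervals and the numbers give barcodes past the limit of all barcodes with the markers. Kupffer barcodes stood at 22.0% and 37.3% and T cell barcodes at 17.2% and 30.3%.

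Low amounts of the rule transcripts were spread over barcodes that should lack them, with medians below the limits and a minority above them. T cell barcodes, with median depths of 6693 UMIs in cirrhosis and 7347 UMIs in control, held a C1q UMI in 41.7% and 26.7% and an LSEC-rule UMI in 72.5% and 86.1% of cases. Their median C1q content was 0% in both libraries and their median LSEC-rule content was 0.0203% and 0.0429%. The C1q content passed the Kupffer limit in 3.63% (12 of 331) and 1.94% (7 of 360) of T cell barcodes. It passed in 7.5% (21 of 280, 4.70% to 11.2%) and 5.15% (5 of 97) of B cell barcodes, in 2.78% (6 of 216) and 2.58% (7 of 271) of NK cell barcodes and in 5% (4 of 80) and 0% (0 of 21) of neutrophil barcodes, with median depths of 4599 and 9168, 7227 and 6972, and 2625 and 3487 UMIs. Kupffer-only barcodes held a median of 0.0187% and 0.0514% LSEC-rule UMIs, and LSEC-only barcodes a median C1q content of 0.011% in cirrhosis and 0% in control. The part of free RNA in the dual group was not tested.

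A doublet score was computed per library from simulated pairs of barcodes, and the highest-scoring 470 cirrhosis (6.13%) and 214 control barcodes (4.14%) were marked. They included 54 of 193 dual barcodes in cirrhosis (28.0%, 21.8% to 34.9%) and 24 of 133 in control (18.05%, 11.9% to 25.6%). Marked shares were 3.66% and 0.893% of Kupffer-only and 6.96% and 4.24% of LSEC-only barcodes. In both libraries the dual interval lay above those of the single classes, and most dual barcodes were not marked. The score reads the same genes that define the classes, and whether a barcode held 1 cell or several was not tested.

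Genes outside the rule showed the same double content. Members of the macrophage and endothelial lists that differed at least 4-fold between the single classes were summed per barcode, 26 macrophage and 26 endothelial genes in cirrhosis and 28 and 26 in control. Macrophage genes made up a median of 1.05% of UMIs in cirrhosis dual barcodes, against 2.85% in Kupffer-only and 0.0472% in LSEC-only barcodes. In control these medians were 1.44%, 3.88% and 0.0620%. Endothelial genes made up a median of 1.73% in cirrhosis dual barcodes, against 0.128% in Kupffer-only and 2.97% in LSEC-only barcodes, and 1.88%, 0.158% and 3.74% in control. At least 0.5% endothelial and 0.2% macrophage content was found in 172 of 193 cirrhosis (89.1%) and 124 of 133 control dual barcodes (93.2%). By contrast 5.42% and 6.25% of Kupffer-only barcodes reached that endothelial content and 5.90% and 6.32% of LSEC-only barcodes reached that macrophage content. The single classes had failed 1 limit by definition, and the genes were picked by their difference between these classes. This contrast thus describes the choice of classes and supports nothing further. The 9 dual barcodes under 0.5% endothelial content in each library were shallow, with medians of 753 UMIs in cirrhosis and 1275 UMIs in control. In cirrhosis 12 further dual barcodes had under 0.2% macrophage content, and they were not shallow, with a median of 10191 UMIs. In control 0 dual barcodes were under that content.

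Macrophage and endothelial content were also set against the levels of the single classes. Each dual barcode's content was divided by the median of the matching single class, and the 2 relative contents were summed. The sum had a median of 103.5% in cirrhosis, with a 10th to 90th percentile range of 72.9% to 137.0%, and 94.9% in control, with a range of 69.2% to 119.4%. The Kupffer share of the sum had a median of 39.6% in cirrhosis and 43.4% in control, and ran from 11.9% to 72.5% and from 16.0% to 70.7% between the same percentiles. It lay between 20% and 80% in 140 of 193 cirrhosis and 103 of 133 control members.

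**Figure D3:**
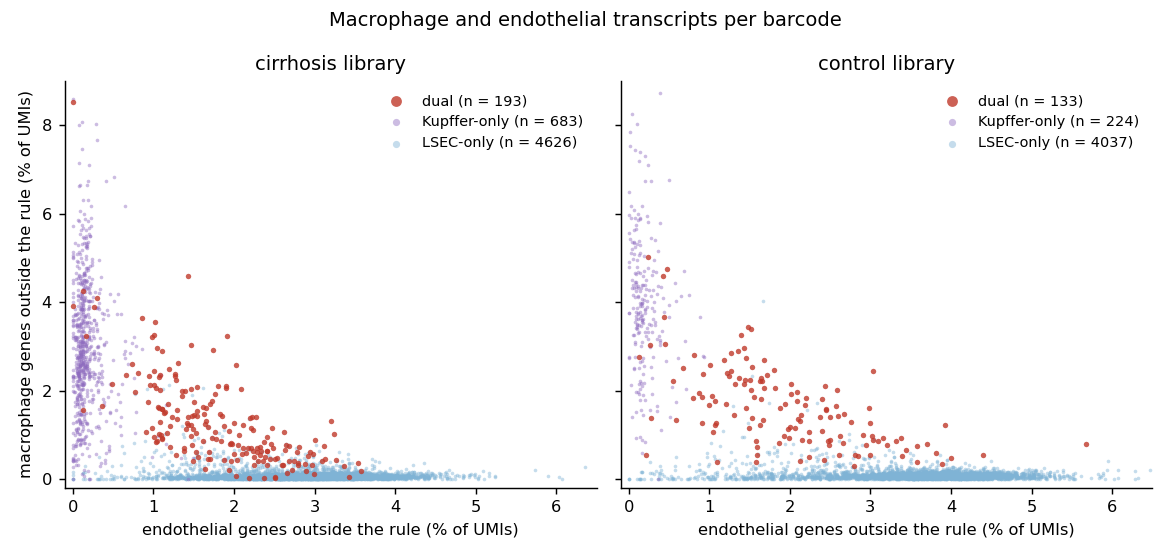
Endothelial content (x axis, % of UMIs from endothelial genes outside the rule) against macrophage content (y axis, % of UMIs from macrophage genes outside the rule) per barcode in the cirrhosis library (left) and the control library (right). Dual barcodes fill a band between Kupffer-only barcodes along the y axis and LSEC-only barcodes along the x axis, with medians of 1.73% and 1.05% in cirrhosis and 1.88% and 1.44% in control. The axes leave out 5 barcodes.

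The summed dual profile was close to a weighted sum of the single profiles. Non-negative least squares over 4446 genes in cirrhosis and 4542 in control, without rule and mitochondrial genes, gave a Kupffer-only part of 44.6% and 40.9% and an LSEC-only part of 55.4% and 59.1%. The weights were free and added to 0.992 and 0.972. The fit had an R2 of 0.990 and 0.981, and 99.1% and 98.5% of the genes lay within 1.5-fold of it. R2 was taken on CPM, where abundant genes weigh most. Against LSEC-only barcodes without a fit, only 5.75% and 6.87% of genes at a mean of 20 CPM differed over 2-fold. A high share of genes near the fit is thus no sign of a mixture by itself. Applied to the median depth, the fitted parts equal 5976 Kupffer and 7422 LSEC UMIs in cirrhosis and 3757 and 5432 UMIs in control. The Kupffer parts were above the Kupffer-only medians of 4342 and 3555 UMIs, and the LSEC parts below the LSEC-only medians of 10458 and 7357 UMIs. The parts come from summed counts, in which deep barcodes weigh more, so these products do not give the content of a median barcode.

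Few genes of the dual profile lay over 2-fold outside the range of the single classes. Of genes at a mean of 50 CPM over the 3 classes, 82% of 3576 in cirrhosis and 78.6% of 3646 in control lay between the single classes. In cirrhosis 0 (0%) were over 2-fold above the higher class and 0 (0%) over 2-fold below the lower one. In control 1 gene (0.0274%) was above and 5 (0.137%) were below, and none of the 3291 genes measured in both libraries passed in both. The gene above was Dcn, decorin of stellate cells and fibroblasts, at 294.2 CPM in dual, 79.9 CPM in Kupffer-only and 99.95 CPM in LSEC-only barcodes, and 245 of its 487 dual UMIs came from 1 barcode. The genes below were Igkc, Ighm, Iglc1 and Jchain, which encode antibody chains and their joining chain, and Ccl5, a chemokine of lymphocytes. Igkc stood at 130.5 CPM in dual, 5813 CPM in Kupffer-only and 409.1 CPM in LSEC-only barcodes of the control library, and 8998 of its 9235 Kupffer-only UMIs came from 1 barcode.

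Against Kupffer-only barcodes, macrophage genes were lower and endothelial genes higher in the dual group, as the rule makes likely. In cirrhosis 1325 of 6585 genes (20.1%) differed over 2-fold and in control 1426 of 6581 (21.7%). In cirrhosis 248 were over 2-fold lower (3.77%) and 1077 over 2-fold higher (16.4%), and in control 364 were lower (5.53%) and 1062 higher (16.1%). Of the pan-endothelial list 16 of 16 measured members were over 2-fold higher in cirrhosis and 15 of 16 in control. Pecam1, an adhesion protein of endothelial contacts, stood at 387.1 CPM in dual and 56.1 CPM in Kupffer-only barcodes of the cirrhosis library and at 370.4 and 73.0 CPM in control. Cdh5, VE-cadherin, was the member that missed the fold in control, at 704.5 CPM in dual and 413.5 CPM in Kupffer-only barcodes, against 641.5 and 155.7 CPM in cirrhosis.

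Against LSEC-only barcodes the dual group was higher in macrophage genes. In cirrhosis 401 of 6970 genes (5.75%) differed over 2-fold and in control 485 of 7056 (6.87%). In cirrhosis 367 were over 2-fold higher (5.27%) and 34 over 2-fold lower (0.488%), and in control 393 were higher (5.57%) and 92 lower (1.3%). Of the pan-macrophage list 15 of 16 members were over 2-fold higher in each library, with list medians of 3.898 and 3.956 on the log2 scale. Ptprc, the pan-leukocyte phosphatase CD45, stood at 214.2 CPM in dual and 27.8 CPM in LSEC-only barcodes of the cirrhosis library and at 184.9 and 38.7 CPM in control. The LSEC identity list had 0 of 13 members past 2-fold in either library, with medians of -0.61 and -0.76. The median of all genes was -0.18 and -0.21, so these medians include a shift shared by the whole profile. The rule used both contrasts, so nothing is read from these counts.

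To set the macrophage transcripts of dual barcodes beside those of Kupffer-only barcodes without dilution by LSEC RNA, UMIs were expressed per 1000 C1q UMIs. Genes at least 4-fold higher in Kupffer-only than in LSEC-only barcodes were used. Of 567 such genes in cirrhosis 11 (1.94%) and of 586 in control 20 (3.41%) differed over 2-fold between dual and Kupffer-only barcodes, and the median log2 ratios were 0.10 and 0.13. The share within 2-fold was thus 98.1% and 96.6%. Lyz2, a lysozyme of myeloid cells, stood at 586.2 in dual and 662.5 in Kupffer-only barcodes per 1000 C1q UMIs in cirrhosis, and at 283.9 and 342.8 in control. Ctss, a lysosomal cathepsin that trims the class II invariant chain, stood at 245.7 and 250.5 in cirrhosis and at 167.8 and 168.9 in control.

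Resident Kupffer genes per C1q UMI were close to the single class. None of the 12 measured members in cirrhosis and 1 of 14 in control passed 2-fold, with list medians of -0.07 and 0.13. Clec4f, a galactose-binding lectin found on Kupffer cells, stood at 92.8 in dual and 104.9 in Kupffer-only barcodes per 1000 C1q UMIs in cirrhosis, and at 343.3 and 326.5 in control. The complement receptor gene Vsig4 stood at 46.7 and 61.9 in cirrhosis and at 153.0 and 136.8 in control. Csf1r, the receptor that keeps macrophages alive, stood at 85.0 and 76.5 in cirrhosis and at 129.8 and 119.5 in control. The member past 2-fold was Marco, a scavenger receptor for bacteria, at 15.4 in dual and 7.03 in Kupffer-only barcodes of the control library (log2 1.13, 0.80 to 1.46), with 39 of its 154 dual UMIs in 1 barcode. In cirrhosis Marco stood at 8.24 and 7.45.

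Other macrophage lists gave similar values. MHC class II genes, which present peptides to CD4+ T cells, had 0 of 7 members past 2-fold in either library, with medians of -0.07 and -0.13. Cd74, the class II invariant chain, stood at 681.2 in dual and 714.3 in Kupffer-only barcodes per 1000 C1q UMIs in cirrhosis and at 672.9 and 752.6 in control. Iron and haem genes had 0 of 6 and 0 of 9 members past 2-fold, with medians of 0.09 and 0.28. Slc40a1, the iron exporter ferroportin, stood at 74.5 and 58.9 in cirrhosis and at 177.0 and 137.4 in control. Among lipid-associated macrophage genes in cirrhosis 0 of 8 passed, and Gpnmb, a glycoprotein of lipid-laden macrophages, stood at 28.2 in dual and 34.0 in Kupffer-only barcodes. Cell cycle genes, 5 measured in cirrhosis, had a median of -0.38 with 0 past 2-fold.

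The genes past 2-fold per C1q UMI were mostly lower in dual barcodes. In cirrhosis 9 (1.59%) were lower and 2 (0.353%) higher, and in control 16 (2.73%) were lower and 4 (0.683%) higher. In cirrhosis they included Igkc, Igha, Iglc2, Jchain and Mzb1, transcripts of antibody-producing cells. In control they included Igkc, Ighg2c, Iglc2, Jchain and Mzb1. For Jchain 2450 of 2783 Kupffer-only UMIs in cirrhosis and 959 of 981 in control lay in 1 barcode, so these differences rest on few barcodes. Of the control Kupffer-only UMIs of Ighg2c, 3776 of 3777 lay in 1 barcode. Genes entered by their Kupffer-only level, which favours lower values in dual barcodes, so nothing is read from this direction. The 2 genes higher in cirrhosis dual barcodes were Egr2, an immediate-early transcription factor (log2 1.003, 0.60 to 1.39), and Mmp13, a collagenase (1.01, 0.72 to 1.30).

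**Figure D4:**
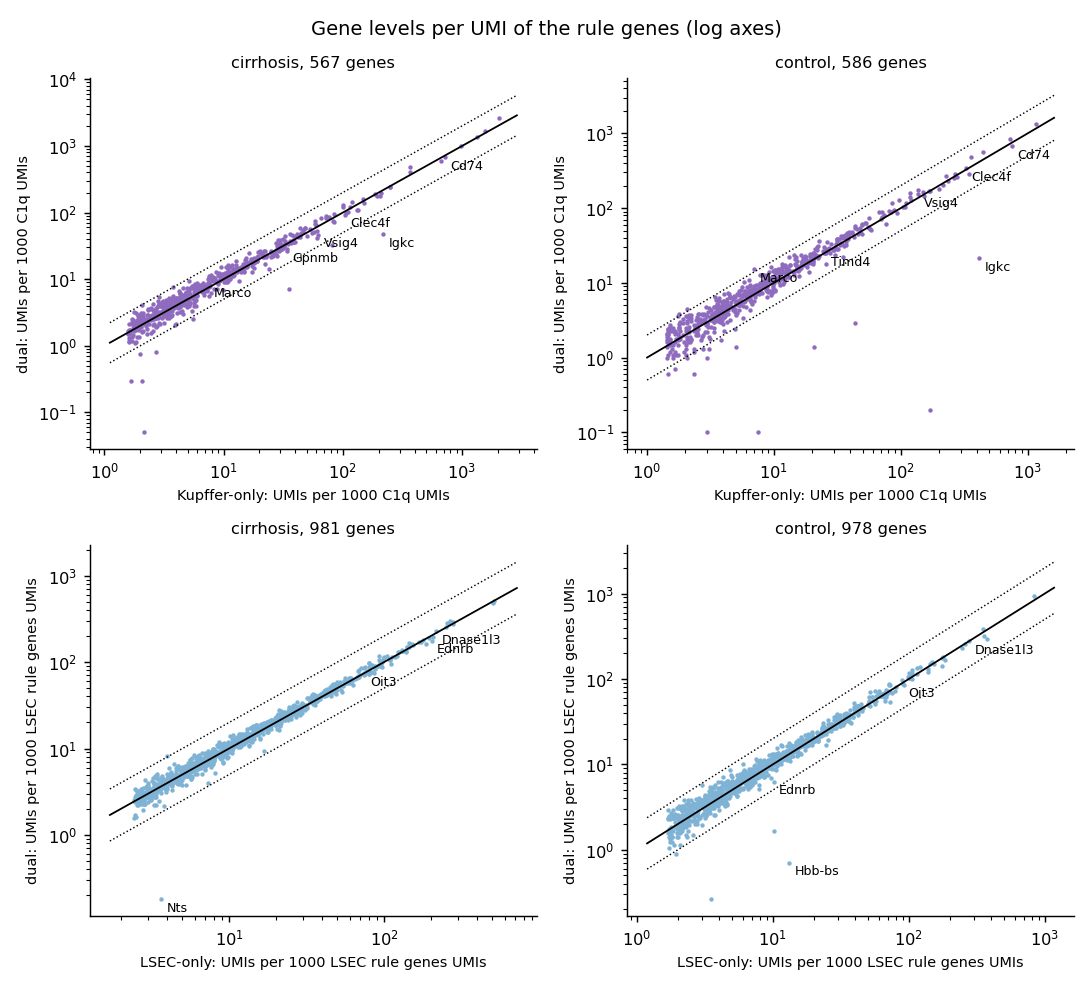
Level of each gene in dual barcodes (y axis) against the single class (x axis) on log axes, per 1000 C1q UMIs for macrophage-side genes (top) and per 1000 UMIs of the 4 LSEC rule genes for LSEC-side genes (bottom), in cirrhosis (left) and control (right). The solid line marks equal levels and the dotted lines 2-fold. Most genes lie between the dotted lines (98.1% and 96.6% in the top panels, 99.8% and 99.6% in the bottom ones), and antibody genes such as Igkc lie below them.

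The endothelial side was compared in the same way, per 1000 UMIs of the 4 LSEC rule genes, over genes at least 4-fold higher in LSEC-only than in Kupffer-only barcodes. Of 981 genes in cirrhosis 2 (0.204%) and of 978 in control 4 (0.409%) differed over 2-fold from LSEC-only barcodes, with median log2 ratios of 0.06 and 0.08. LSEC identity genes had 0 of 10 members past 2-fold in either library and medians of 0.07 and -0.01. Dnase1l3 encodes a DNase that LSECs release, and it stood at 226.7 in dual and 216.3 in LSEC-only barcodes per 1000 LSEC-rule UMIs in cirrhosis, and at 276.6 and 277.1 in control. Oit3, an LSEC protein of the zona pellucida domain family, stood at 73.1 and 75.6 in cirrhosis and at 87.3 and 90.3 in control. Gpr182, an atypical chemokine receptor of sinusoids, stood at 157.0 and 154.7 in cirrhosis and at 148.6 and 152.0 in control. Genes past 2-fold were Itga8 (log2 1.04) and Nts (-4.33) in cirrhosis and Fgfr3 (-1.14), Hbb-bs (-4.23), Hba-a1 (-3.73) and Iglc1 (-2.61) in control. Of the LSEC-only UMIs of Hbb-bs, a haemoglobin gene, 5374 of 5442 lay in 1 barcode. Genes entered here by their LSEC-only level, so nothing is read from the direction of these differences either.

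Summed markers of the zones of the sinusoid differed little between dual and LSEC-only barcodes. The sums took members past the same 4-fold filter, 8 pericentral, 7 periportal and 4 large-vessel genes in cirrhosis and 9, 6 and 2 in control. Single pericentral members in the sums ran from log2 -0.64 to 0.31 in cirrhosis and from -0.21 to 0.74 in control. By CPM and without that filter, 3 of 10 pericentral members were over 2-fold lower in cirrhosis (lowest -2.04) and 0 of 9 in control. Pericentral genes, such as the Wnt ligand Wnt2 and the anticoagulant receptor Thbd, summed to 447.5 UMIs per 1000 LSEC-rule UMIs in cirrhosis dual barcodes and 485.5 in LSEC-only barcodes (log2 -0.12, -0.15 to -0.08). In control these sums were 284.1 and 285.6 (-0.01, -0.06 to 0.04). Periportal genes, such as the Notch ligand Dll4 and the ephrin Efnb2, summed to 96.3 in dual and 102.7 in LSEC-only barcodes of the cirrhosis library (-0.09, -0.17 to -0.02) and to 107.7 and 105.5 in control (0.03, -0.05 to 0.11). Large-vessel genes differed by -0.13 (-0.20 to -0.07) and -0.14 (-0.25 to -0.04). In each library the pericentral and periportal intervals overlapped.

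The reporter followed the endothelial content. eGFP, the mark of the sort, stood at 852.8 CPM in dual (821.8 to 884.6), 145.7 CPM in Kupffer-only and 1431 CPM in LSEC-only barcodes of the cirrhosis library. In control its levels were 820.5 CPM (777.4 to 865.3), 122.7 and 1629 CPM. The weighted sum of the single profiles gave 851.0 CPM for the cirrhosis and 985.2 CPM for the control dual barcodes, so the control value was lower than its sum. An eGFP UMI was found in 182 of 193 cirrhosis and 124 of 133 control dual barcodes, against 26.5% and 33.5% of Kupffer-only barcodes. tdTomato, the colour before recombination, stood at 19.7 CPM in dual, 38.8 CPM in Kupffer-only and 5.87 CPM in LSEC-only barcodes in cirrhosis and at 38.7, 63.6 and 10.3 CPM in control. A tdTomato UMI was found in 42 of 193 cirrhosis and 33 of 133 control dual barcodes, against 3.35% and 3.79% of LSEC-only barcodes.

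Transcripts of further cell types were measured in the dual group, hepatocyte genes among them. The 14 hepatocyte genes made up a median of 0.143% of UMIs in cirrhosis and 0.259% in control dual barcodes, against 0.228% and 0.508% in Kupffer-only and 0.0643% and 0.0405% in LSEC-only barcodes. Their summed level was 3716 CPM in dual, 5493 CPM in Kupffer-only and 4711 CPM in LSEC-only barcodes of the cirrhosis library. In control these sums were 3378, 4862 and 2857 CPM. By summed level cirrhosis dual barcodes were thus below both single classes. The list was led by Alb, albumin, at 754.4 CPM in cirrhosis and by Apoc1, an apolipoprotein that macrophages express too, at 1247 CPM in control dual barcodes. Alb stood at 1076 CPM in Kupffer-only and 1115 CPM in LSEC-only barcodes of the cirrhosis library. Over 0.5% hepatocyte content was found in 37 cirrhosis (19.2%) and 27 control dual barcodes (20.3%). The T cell list summed to 41.7 CPM and 38.7 CPM with 0 of 8 members above 20 CPM, and 4 cirrhosis and 3 control dual barcodes passed the limit of another leukocyte type. The dendritic cell, NK cell, neutrophil and platelet lists had 1 or more members at 0 in each library. The dendritic cell list summed to 802.4 and 608.4 CPM, of which Bst2, a gene that was also at 857.1 and 676.5 CPM in LSEC-only barcodes, gave 671.9 and 459.2 CPM. Erythroid genes summed to 2.38 and 7.85 CPM. B cell genes summed to 82.8 and 129.9 CPM in dual, 265.6 and 281.4 CPM in Kupffer-only and 48.6 and 22.6 CPM in LSEC-only barcodes. Cholangiocyte genes summed to 577.8 and 361.3 CPM in dual barcodes, of which Spp1, osteopontin, gave 403.1 and 208.5 CPM. Spp1 stood at 357.2 and 73.6 CPM in Kupffer-only and at 379.7 and 441.3 CPM in LSEC-only barcodes. In 1 barcode lay 504 of its 1353 cirrhosis dual UMIs, and in another 178 of its 345 control dual UMIs. Stellate and fibroblast genes summed to 397.8 CPM in dual, 395.8 CPM in Kupffer-only and 330.8 CPM in LSEC-only barcodes in cirrhosis. In control these sums were 699.1, 290.2 and 386.7 CPM, so the dual sum was above both single classes. Without Dcn, of which 1 barcode held 245 UMIs, they were 404.8, 210.2 and 286.7 CPM in control and 313.2, 339.0 and 299.0 CPM in cirrhosis.

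Cirrhosis and control dual barcodes differed in genes of both identities. Of 6912 genes at a mean of 20 CPM with counts in both libraries, 167 (2.42%) were over 2-fold higher and 184 (2.66%) over 2-fold lower in cirrhosis, with the median of all genes at 0.00 on the log2 scale. Over 2-fold higher were 4.61% and over 2-fold lower 5.26% of genes in Kupffer-only barcodes, and 1.75% and 1.67% in LSEC-only barcodes. Each ratio below compares 1 cirrhosis with 1 control library and has no replicate check.

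The summed levels were joined by differences in how many dual barcodes held the transcripts of resident, lipid-associated and monocyte-derived macrophages. At least 2 UMIs of Clec4f were found in 42.5% of cirrhosis dual barcodes (82 of 193, 35.4% to 49.8%) and 87.2% of control dual barcodes (116 of 133, 80.3% to 92.4%). At least 1 UMI of Timd4 was found in 3.63% (7 of 193) and 56.4% (75 of 133). Both shares were lower in cirrhosis although its dual barcodes were deeper. At least 2 UMIs of Gpnmb, Trem2 or Spp1 were found in 68.4% (132 of 193) and 18.8% (25 of 133) of dual barcodes. In Kupffer-only barcodes this set was at 71.7% and 11.6%, and in LSEC-only barcodes at 12.4% and 3.10%. Spp1 had a UMI in 26.8% and 13.8% of LSEC-only barcodes, so this set is not particular to macrophages. For Gpnmb alone the dual shares were 22.8% (44 of 193) and 0% (0 of 133), and for Ccr2 23.3% (45 of 193) and 2.26% (3 of 133). After thinning to 2000 UMIs, over 185 cirrhosis and 125 control dual barcodes, at least 1 UMI of Clec4f was found in 35.7% and 84%, of Timd4 in 0.541% and 13.6%, of Gpnmb, Trem2 or Spp1 in 48.6% and 9.6%, and of Ccr2 in 14.6% and 1.6%. The order of the libraries was thus the same at equal depth for these 4 sets. Thinned Kupffer-only barcodes had this order too, at 41.9% and 89.8% for Clec4f and 2.03% and 47.6% for Timd4. They stood at 72.6% and 16.3% for Gpnmb, Trem2 or Spp1 and at 23.8% and 5.44% for Ccr2.

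Resident Kupffer genes were lower in cirrhosis dual barcodes, with 10 of 16 measured members over 2-fold lower, 0 over 2-fold higher and a median of -1.28. The median in Kupffer-only barcodes was -1.19. Cd163, the receptor for haptoglobin-bound haemoglobin, stood at 1.79 CPM in cirrhosis and 240.5 CPM in control dual barcodes (log2 -7.07, -8.53 to -5.94), from 6 and 398 UMIs. Timd4, a receptor for phosphatidylserine on dying cells and a marker of embryo-derived Kupffer cells, stood at 3.28 and 151.1 CPM (-5.53, -6.55 to -4.66). Clec4f stood at 554.2 and 2080 CPM (-1.91), Vsig4 at 278.6 and 926.9 CPM (-1.73) and Adgre1, the macrophage marker F4/80, at 254.2 and 293.6 CPM (-0.21). The members were thus uneven, from -7.07 to -0.13. With the Kupffer limit on Clec4f, Vsig4 and Cd5l, which are members of the list, the dual median was -0.59. Complement genes were lower in 5 of 10 members past 2-fold, among them C2, a protease of the classical pathway (log2 -3.63), C6 of the terminal pathway at 28.9 and 329.9 CPM and C4b at 14.9 and 166.8 CPM.

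Lipid-associated macrophage genes were higher in cirrhosis dual barcodes, with 8 of 11 members over 2-fold higher, 0 lower and a median of 1.42, against 2.58 in Kupffer-only barcodes. Gpnmb stood at 168.4 CPM in cirrhosis and had 0 UMIs in the control dual barcodes, where a floor of 3 counts over the class is 1.81 CPM, so it was at least 92.9-fold higher. With Gpnmb at that bound the median was 1.62 over 12 members. Trem2, a lipid receptor of these macrophages, stood at 334.9 and 42.9 CPM (log2 2.96, 2.62 to 3.33), Mmp12, a macrophage elastase, at 218.4 and 16.3 CPM (3.74) and Cd63, a tetraspanin of late endosomes, at 475.6 and 36.9 CPM (3.69). The control level of Mmp12 came from 27 UMIs, 19 of them in 1 barcode. Monocyte genes had 2 of 5 members past 2-fold, with Ccr2, the receptor that brings monocytes into tissue, at 178.2 and 13.3 CPM (3.74, 3.13 to 4.43) and Cx3cr1 at 207.1 and 21.1 CPM (3.29). Ms4a7, a membrane protein of monocyte-derived macrophages, stood at 268.5 and 36.9 CPM.

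**Figure D5:**
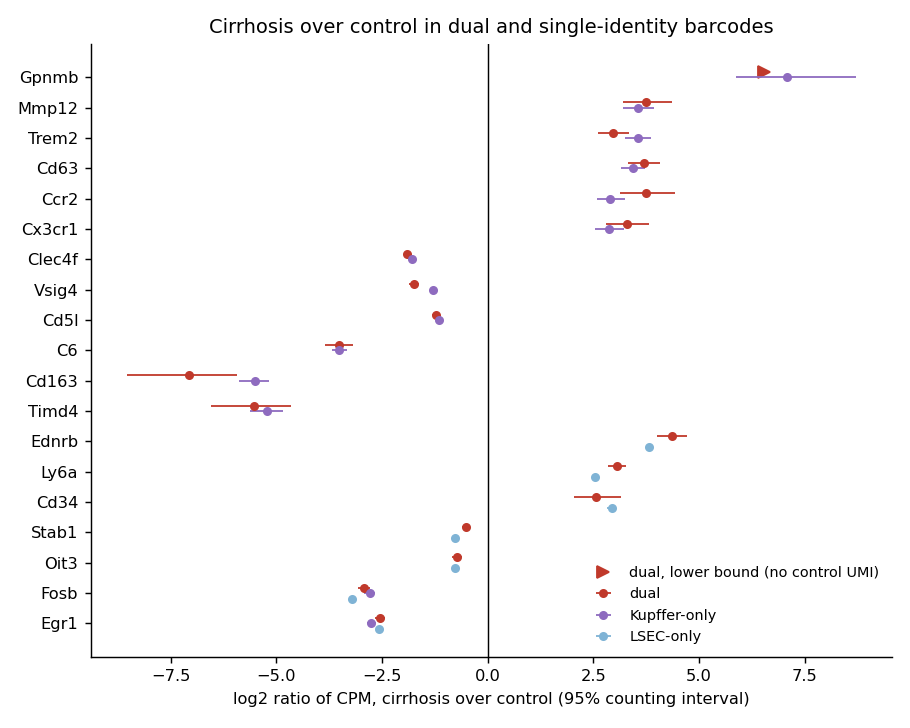
Log2 ratio of CPM in the cirrhosis over the control library for named genes (y axis) in dual barcodes, in Kupffer-only barcodes for macrophage genes and Fosb and Egr1, and in LSEC-only barcodes for endothelial genes and Fosb and Egr1. Bars are 95% counting intervals, some smaller than the symbol, and the triangle is the lower bound for Gpnmb, which had 0 control dual UMIs. The dual value has the sign of the single class for every gene shown, as with Trem2 at 2.96 and Timd4 at -5.53. The genes shown were picked with their values known, so nothing is read from the shared sign.

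Endothelial genes of capillarization, the gain of continuous-capillary features by LSECs, were over 2-fold higher in 8 of 12 members, with 0 lower and a median of 2.08, against 2.69 in LSEC-only barcodes. Ednrb, an endothelin receptor, stood at 877.2 and 42.9 CPM (log2 4.35, 4.01 to 4.71), Ly6a, the antigen Sca-1, at 960.3 and 115.4 CPM (3.06) and Cd34 at 111.4 and 18.7 CPM (2.57, 2.04 to 3.15). Ly6c1 stood at 125.7 and 0.604 CPM (7.70, 5.22 to 13.01), with 1 control UMI, and the similar Ly6 genes that lie next to each other can share reads. The vessel gene Vwf, von Willebrand factor, stood at 46.8 and 42.9 CPM in dual (0.12, -0.29 to 0.55) and at 138.6 and 34.3 CPM in LSEC-only barcodes (2.01), and 35 of its 71 control dual UMIs came from 1 barcode. LSEC identity genes had 0 of 13 members past 2-fold, with a median of -0.52 beside -0.64 in LSEC-only barcodes. Stab1, a scavenger receptor, stood at 758.0 and 1083 CPM and Oit3 at 361.4 and 599.4 CPM.

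Immediate-early genes, which dissociation of tissue is known to switch on, were over 2-fold lower in 15 of 16 members in cirrhosis dual barcodes, with a median of -1.63. The medians were -1.90 in Kupffer-only and -1.84 in LSEC-only barcodes. Fosb, a subunit of the AP-1 factor, stood at 149.3 and 1132 CPM (log2 -2.92) and Egr1, an early growth response factor, at 239.6 and 1394 CPM (-2.54). Gm26802, a transcript without a named function, stood at 5.36 and 122.0 CPM. Interferon-stimulated genes had 4 of 12 members over 2-fold higher, with a median of 0.87 in dual, 0.35 in Kupffer-only and 1.01 in LSEC-only barcodes. MHC class II genes had 0 of 7 past 2-fold, and Cd74 stood at 4067 and 4077 CPM. The remaining genes among the 10 lowest ratios at a mean of 50 CPM were Cxcl13, a chemokine for B cells, at 13.4 and 110.0 CPM with 43 of its 45 cirrhosis UMIs in 1 barcode, Vipr1, a receptor for vasoactive intestinal peptide, at 16.1 and 108.2 CPM, and Gbp2b, an interferon-induced GTPase, at 17.3 and 106.9 CPM.

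The same ratios per rule-gene UMI were compared between dual and single classes over genes of 1 side in both libraries. Per C1q UMI, 47 of 435 macrophage-side genes (10.8%) were over 2-fold higher in cirrhosis and 56 (12.9%) lower in dual barcodes, against 39 (8.97%) and 48 (11%) in Kupffer-only barcodes. Per LSEC-rule UMI, 100 of 773 endothelial-side genes (12.9%) were higher and 5 (0.647%) lower in dual barcodes, against 92 (11.9%) and 4 (0.517%) in LSEC-only barcodes. On this scale the median of all 773 genes was 0.40 in dual and 0.43 in LSEC-only barcodes, so the excess of higher genes includes a shift of the rule genes themselves, whereas per C1q UMI the medians were -0.01 and -0.02. Whether the dual ratios differed from those of the single classes was not tested, since each library holds 1 value per class.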

How the data were processed

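The authors deposited 1 table of UMI counts per library as whole numbers, with 31057 gene rows and a column per barcode. The submitters' processing notes name Cell Ranger and mm10, and neither a version nor an annotation is given in the sources used here. The lowest deposited total was 500 UMIs. The filters removed 665 cirrhosis and 474 control barcodes. Members and gene lists were chosen with earlier results of these data known.

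Counts were summed per class and library and expressed as CPM, with exact conditional 95% intervals of ratios (scipy 1.17.1), which cover counting error only. No test was made with 1 library per group. Comparisons used genes at a mean of 20 CPM, and fits 50 CPM. Up to 4 members per list at 20 CPM and the 10 highest and 10 lowest cirrhosis over control ratios at a mean of 50 CPM were named. A few further list members were named after their values were seen. T cell, NK cell, B cell and neutrophil markers needed 3 UMIs and 0.05%, 0.2%, 0.1% and 0.5% of UMIs. Doublets were scored with scanpy 1.11.5, the top 0.8% per 1000 barcodes were marked, and none were removed. Positions are from GENCODE M21, with 30464 symbols matched. Ratios and fits were tested on simulated data.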

Additional observations from a re-analysis of the deposited data

Results flagged for a closer look

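For 6 of 132 list genes (4.55%), and 15 of all 1208 genes examined (1.24%), the level per rule-gene UMI in dual barcodes lay on opposite sides of the single class in the 2 libraries, with both counting intervals off 0. The difference between libraries was not tested. Per C1q UMI, dual over Kupffer-only, Nr1h3, the oxysterol receptor LXR alpha that is needed for Kupffer identity, had a log2 ratio of -0.46 in cirrhosis and 0.24 in control, a difference of -0.69. Vsig4 had -0.41 and 0.16, a difference of -0.57, and Clec4f had -0.18 and 0.07, a difference of -0.25. The chemokine gene Ccl4 went the other way, at 0.22 and -0.68, a difference of 0.90. Per LSEC-rule UMI, dual over LSEC-only, Thbd had -0.23 and 0.24, a difference of -0.47, and Ntn4, a netrin of basement membrane, had -0.23 and 0.22, a difference of -0.45.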

How the results depend on the processing

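Under 10 alternatives, 154 values of 23 results were recomputed. Of these, 129 stayed within the spread or within 1.5 times of the value as reported, 25 moved and 0 reversed. Only a change of sign in a value with an interval off 0 was scored as reversed. Counts, UMI medians and mixture shares could thus not reverse, and the spread of mixture shares was a binomial interval over barcodes. Medians near 0 that changed sign were scored as unmoved. The resident Kupffer median per C1q UMI in cirrhosis, for example, was -0.07 as reported and 0.05 with the Kupffer limit from Clec4f, Vsig4 and Cd5l. With both limits doubled there were 30 cirrhosis and 51 control dual barcodes, a cirrhosis median of 16834 UMIs, 681 genes past 2-fold against LSEC-only barcodes in cirrhosis, 7 cirrhosis genes outside both classes, and 257 genes higher and 354 lower in cirrhosis than in control dual barcodes. With the Kupffer limit taken from Clec4f, Vsig4 and Cd5l there were 213 control dual barcodes, a cirrhosis median of 12107 UMIs, Kupffer parts of 31.4% and 31.5% in cirrhosis and control, 320 genes past 2-fold against LSEC-only barcodes in control, 3 cirrhosis genes outside both classes and a resident Kupffer median of -0.59 for cirrhosis over control. With no minimum level, 3946 cirrhosis and 3831 control genes were past 2-fold against Kupffer-only barcodes and 2890 and 2900 against LSEC-only barcodes, and 981 were higher and 1482 lower in cirrhosis than in control dual barcodes. With the mean CPM per barcode, 2090 cirrhosis genes were past 2-fold against Kupffer-only barcodes and 2 lay outside both classes. The number of cirrhosis genes outside both classes was 1 without barcodes with transcripts of other cell types. It was 3 at a minimum of 20 CPM in place of 50, and 21 in control. The cause was not tested. No paired analysis was possible because each group has 1 library. Depth limits sparse genes, since 0 counts among the 1655060 UMIs of control dual barcodes allow up to 1.81 CPM, taken as 3 counts.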
